A study of Mus musculus with 32 samples.

Results

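The genes described here are 9 transcripts by which homeostatic microglia, the resident macrophages of the brain and spinal cord in their surveying state, are commonly recognised: P2ry12, P2ry13, Gpr34, Cx3cr1, Siglech, Tmem119, Sall1, Olfml3 and Fcrls. They were taken by name from a table of 42524 genes, and all 9 were counted in every library and passed the filter on low counts at both ages. RNA was sequenced from spinal cord of 32 mice, 4 in each of 8 groups made of genotype, treatment and age. The groups were untreated WT, OKN-007 WT, untreated G93A and OKN-007 G93A mice, each at 90 days and at 155 days.

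G93A mice carry a transgene for human SOD1 with the G93A mutation, which is linked to familial amyotrophic lateral sclerosis (ALS), and the line B6-Tg(SOD1-G93A)1Gur/J expresses it from the human SOD1 promoter in all tissues on the C57BL/6J background. WT mice were their littermates without the transgene, so the genotypes also differ in carrying a highly expressed human gene. OKN-007 is a nitrone with antioxidant and anti-inflammatory activity that was given in the drinking water; the dose of the sequenced mice is not assigned here. The paper describes the earlier time as the approximate onset of disease and gives a slightly later age for it than the sample labels, which are followed here. Mice of the study cohorts were mostly female. The samples were pieces of whole spinal cord RNA, so that fewer microglia and less RNA per microglial cell cannot be told apart, nor can more cells and more RNA per cell.

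Microglia sense their surroundings through purinergic and chemokine receptors. P2RY12 and P2RY13 bind extracellular ADP, and P2RY12 steers process movement towards injured cells, while CX3CR1 binds fractalkine (Cx3cl1), which neurons display. TGF-beta signalling and the transcription factor SALL1 maintain this state in the adult central nervous system. When microglia take up the disease-associated state described in neurodegeneration, surface receptors such as Clec7a and Itgax are induced, and several homeostatic transcripts are described as reduced within each cell. The 9 genes therefore form a set in which the amount of microglial RNA in the tissue and the state of the cells both bear on the level. As a scale for the amount of myeloid RNA, each gene was also set against a reference of 10 transcripts shared by microglia and other myeloid cells (Aif1, Csf1r, Itgam, Ptprc, Spi1, Laptm5, Cd53, Irf8, Ikzf1 and Dock2). These transcripts may themselves change with the state of the cells, so a value on this scale is not a level per microglial cell.

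In GENCODE M21 (GRCm38), the build used here for positions, 4 of the 9 genes lie on chromosome 3 on the minus strand. P2ry13 (ENSMUSG00000036362, chr3:59207892-59210882) and P2ry12 (ENSMUSG00000036353, chr3:59216272-59262871) are neighbours, both inside the protein-coding gene Med12l on the opposite strand, and 9 exon bases of P2ry12 overlap exons of Med12l. Fcrls (ENSMUSG00000015852) lies at chr3:87250758-87263738 and Olfml3 (ENSMUSG00000027848) at chr3:103722222-103738001. Gpr34 (ENSMUSG00000040229, chrX:13632089-13640858) lies inside Cask, and 78 exon bases of Cx3cr1 (ENSMUSG00000052336, chr9:119901616-120069879) overlap the antisense gene Gm33858. The remaining genes are Siglech (ENSMUSG00000051504, chr7:55768178-55778925), Tmem119 (ENSMUSG00000054675, chr5:113793729-113800516) and Sall1 (ENSMUSG00000031665, chr8:89027235-89044162). The libraries were stranded, but the strand setting of the counting is not given in the sources used here, so reads of the short overlaps may not be separated.

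Promoters of 3 genes, picked after the values were seen, are shown because Sall1 moved little, P2ry13 by an intermediate factor and Olfml3 much. RefSeq windows of GRCm38.p6 matched 7 of the 9 genes by symbol, not Tmem119 and Gpr34. The window of P2ry12 lies within exons of Med12l and is not printed, and of 3 windows listed for Sall1 the one farthest upstream is. The 250 bases before the start of P2ry13 hold the letters GAGGAA, the core bound by the myeloid factor PU.1 (Spi1), 48 bases before the start, while the windows of Olfml3 and Sall1 do not. The windows of P2ry13 (chr3:59210883-59211132), Olfml3 (chr3:103738002-103738251) and Sall1 (chr8:89044163-89044412) follow, all on the minus strand, 5′ to 3′, with the PU.1 letters in capitals.
P2ry13: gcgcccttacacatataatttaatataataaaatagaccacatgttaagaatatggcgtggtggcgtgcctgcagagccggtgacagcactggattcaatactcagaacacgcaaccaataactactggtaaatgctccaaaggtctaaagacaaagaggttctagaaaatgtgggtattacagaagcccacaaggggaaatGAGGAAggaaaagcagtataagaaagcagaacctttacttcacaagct
Olfml3: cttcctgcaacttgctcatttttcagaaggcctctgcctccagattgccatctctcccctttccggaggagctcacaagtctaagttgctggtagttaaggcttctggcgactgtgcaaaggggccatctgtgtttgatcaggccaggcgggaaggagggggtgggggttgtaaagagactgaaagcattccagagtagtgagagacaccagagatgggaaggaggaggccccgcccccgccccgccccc
Sall1: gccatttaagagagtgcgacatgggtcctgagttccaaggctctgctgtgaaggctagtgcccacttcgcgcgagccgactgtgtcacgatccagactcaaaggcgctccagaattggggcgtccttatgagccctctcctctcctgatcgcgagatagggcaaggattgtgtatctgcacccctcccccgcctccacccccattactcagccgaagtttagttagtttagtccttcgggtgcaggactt
GAGGAA, searched on both strands, was in windows of 2 of the 7 genes (Fcrls and P2ry13) and in 23.3% of all 32851 windows of the same length. The SMAD letters CAGAC were in windows of 5 genes (Cx3cr1, Fcrls, P2ry12, Sall1 and Siglech) and in 42.2% of all windows. TGCTGA, part of the site of MAF factors, was found in 1 gene (Fcrls) against 16.1% of all windows. The E-box CACGTG was found in 2 genes (P2ry12 and Siglech) against 6.02%. The 7 genes had 9 windows, and each motif was in as many of these windows as genes (CAGAC in 5 of 9). All 250 bases of the Cx3cr1 window lie in exons of Cx3cr1, and 136 of the 250 bases of the Fcrls window in exons of Fcrls. These matches are descriptions of short letters and do not show binding.

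Total gene counts lay between 19701722 and 30138257 in the 32 libraries, and levels are given as CPM, counts scaled to the library size with TMM factors over all libraries. In the smallest library 3 counts would give 0.145 CPM, far below every value of the 9 genes. Libraries did not stand alone in depth, but they differed in other ways. The score of 9 caudal Hox genes, which are transcribed in the lower cord, ran from 1.63 to 3.60 in untreated G93A mice at 155 days and from 3.76 to 4.48 in untreated WT mice (mean log2(CPM + 1)). In OKN-007 mice of that age it ran from 2.38 to 3.61 in G93A and from 4.31 to 4.54 in WT mice, also without overlap. The labels do not say which stretch of the cord each sample came from, so position along the cord and genotype cannot be told apart. Alb, a liver gene, reached 142 CPM in 1 untreated and 86.2 CPM in 1 OKN-007 G93A mouse at 155 days. Mouse Sod1 did not separate the genotypes, at 242 to 355 CPM in 16 WT mice and 238 to 405 CPM in 16 G93A mice, and the human transgene was not analysed here. Motor neuron markers, by contrast, were lower in untreated G93A mice at 155 days for 5 of 6 genes, where 18.2% of all genes tested were called lower (log2 fold change from -1.29 for Mnx1 to -0.41 for Chat among those called).

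At 155 days, the 9 genes were all higher in untreated G93A than in untreated WT cord (9 of 9 at an adjusted p under 0.05, against 21.3% of the 18675 genes tested that were called higher). Their log2 fold changes ran from 0.39 for P2ry12 to 3.86 for Fcrls, with a median of 1.39, while the median over all genes tested was 0.00015. In 8 of the 9, every G93A mouse lay above every WT mouse, which was so for 17.4% of all genes tested, and P2ry12 was the exception. The size of the change was far from even: Fcrls, Olfml3, Cx3cr1 and Gpr34 rose by 3.88-fold or more, and P2ry12, Sall1 and Tmem119 by 1.57-fold or less.

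**Figure D1:**
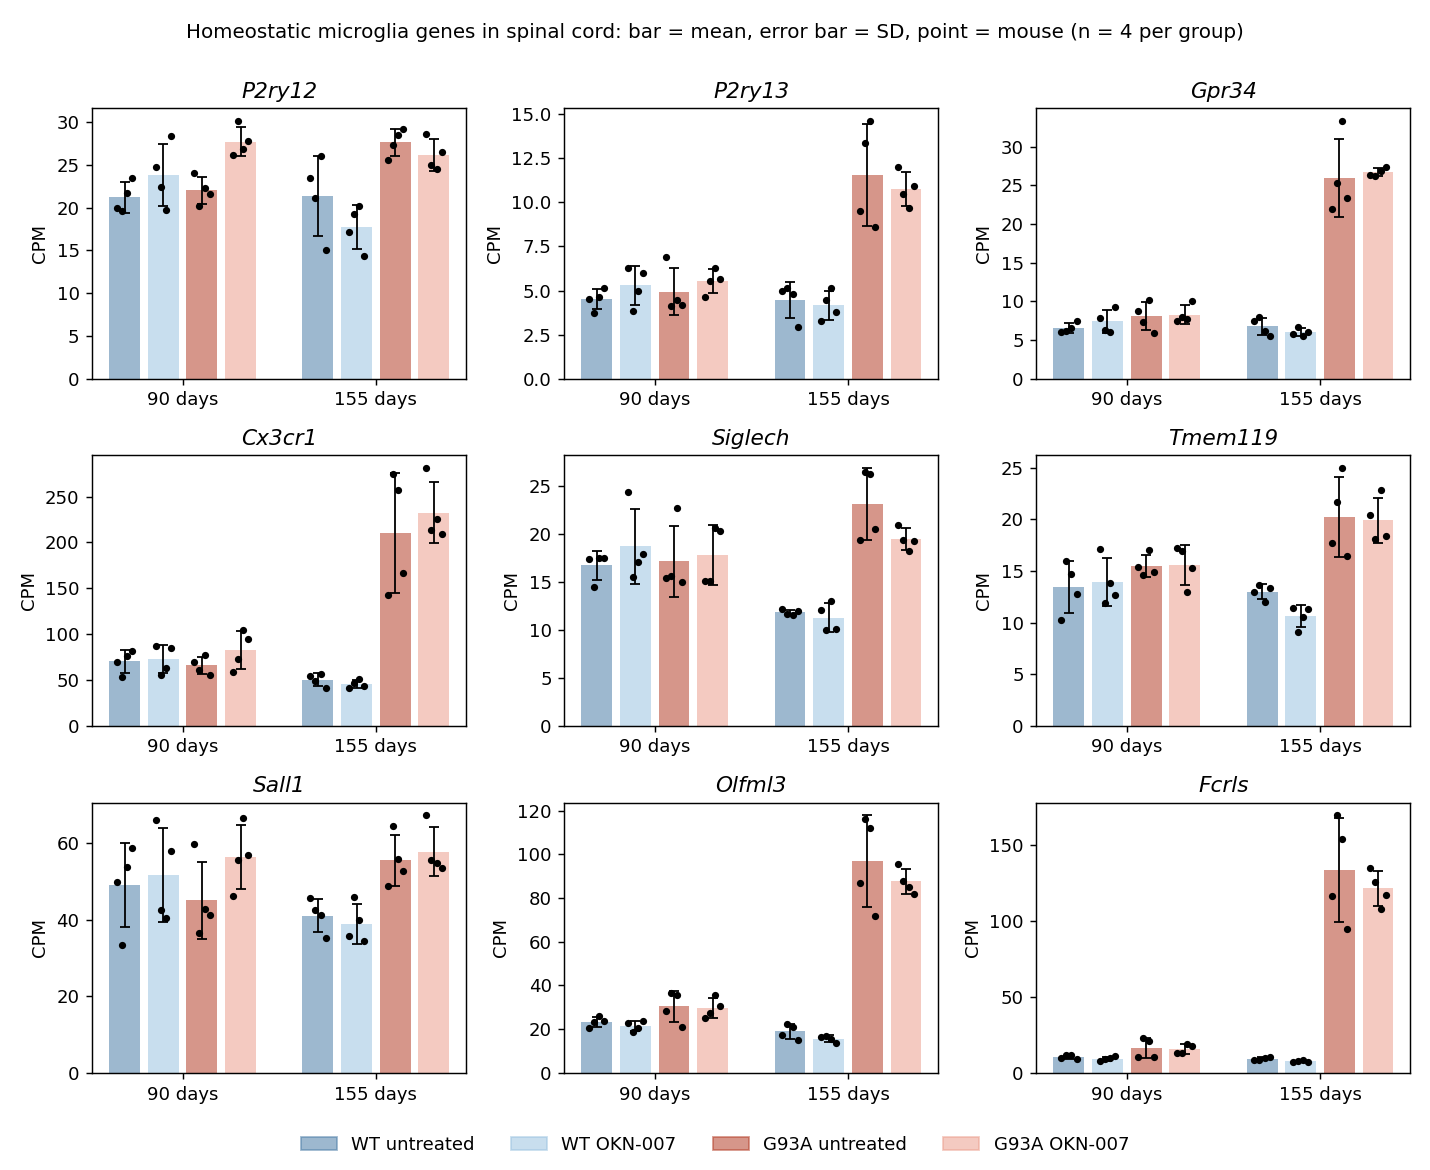
Level of each of the 9 genes (CPM, linear axis from 0) in the 8 groups at 90 and 155 days. Bars are means of 4 mice, error bars SD and points single mice. Fcrls, Olfml3, Gpr34 and Cx3cr1 stand far above the other groups in both G93A groups at 155 days, whereas P2ry12 lies between 14.4 and 30.1 CPM in all 32 mice.

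P2ry12, the ADP receptor most often used to mark resting microglia, measured 25.6, 27.3, 28.5 and 29.2 CPM in untreated G93A mice at 155 days and 23.4, 21.1, 26.0 and 15.03 CPM in untreated WT mice. The highest WT mouse lay above the lowest G93A mouse, and WT replicate 4 stood below the other WT mice. The fold change was 1.31 (95% interval 1.08 to 1.58, edgeR adjusted p = 0.0271). Without WT replicate 4 the log2 fold change fell from 0.39 to 0.26 and the call was lost (edgeR adjusted p = 0.0659). It was also lost with the Hox score as a covariate (log2 fold change 0.31, edgeR adjusted p = 0.184).

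P2ry13, the neighbouring ADP receptor gene, measured 9.54, 13.4, 14.6 and 8.63 CPM in these G93A mice and 4.96, 5.17, 4.78 and 2.92 CPM in the WT mice. The groups lay apart, and the fold change was 2.62 (95% interval 1.98 to 3.46, edgeR adjusted p = 1.30e-05). The ratio of P2ry13 to P2ry12 within a mouse, chosen for description after the values were seen, was 0.418 ± 0.102 in untreated G93A and 0.208 ± 0.026 in untreated WT mice (SD, n = 4 each). It was 0.412 ± 0.012 in OKN-007 G93A mice at 155 days (SD, n = 4), and in the remaining 5 groups the mean lay between 0.200 and 0.235. The ratios of the untreated genotypes at 155 days did not overlap, so that these neighbouring genes rose by unequal factors.

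Gpr34, a receptor for lysophosphatidylserine on microglia, measured 21.9, 25.2, 33.3 and 23.4 CPM in untreated G93A and 7.42, 7.99, 6.12 and 5.58 CPM in untreated WT mice at 155 days. The lowest G93A mouse was well above the highest WT mouse, and the fold change was 3.88 (95% interval 3.21 to 4.68, edgeR adjusted p = 9.70e-10). Cx3cr1, the fractalkine receptor, measured 143, 275, 257 and 167 CPM in G93A and 54.4, 48.7, 56.8 and 40.9 CPM in WT mice. Its groups were likewise apart, with a fold change of 4.23 (95% interval 3.28 to 5.44, edgeR adjusted p = 2.16e-08), although replicates 9 and 12 of the G93A mice lay far below replicates 10 and 11. The same pair of mice was lowest of the G93A group for P2ry13, Gpr34, Siglech, Tmem119, Olfml3, Fcrls and Sall1.

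Siglech, a sialic acid-binding lectin of microglia that also marks plasmacytoid dendritic cells, measured 19.4, 26.4, 26.2 and 20.5 CPM in untreated G93A and 12.2, 11.6, 11.5 and 11.9 CPM in untreated WT mice. WT mice were close together and all below the G93A mice, with a fold change of 1.97 (95% interval 1.68 to 2.31, edgeR adjusted p = 9.78e-07). Markers of plasmacytoid dendritic cells (Ccr9, Klk1 and Ly6d) were too low to be tested, and their sum was at most 0.430 CPM in these 8 mice. Tmem119, a membrane protein of microglia without a settled function, measured 17.7, 21.7, 25.0 and 16.5 CPM in G93A and 12.9, 13.6, 12.04 and 13.4 CPM in WT mice. The groups did not overlap and the fold change was 1.57 (95% interval 1.32 to 1.86, edgeR adjusted p = 0.000265).

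Sall1, the transcription factor that holds microglial identity, measured 49.0, 64.6, 56.1 and 52.7 CPM in untreated G93A and 45.6, 42.6, 41.2 and 35.2 CPM in untreated WT mice. The groups did not overlap but lay close together, and the fold change was 1.36 (95% interval 1.16 to 1.60, edgeR adjusted p = 0.00323). With the Hox score as a covariate the log2 fold change was 0.32 and the call was lost (edgeR adjusted p = 0.0955). The ratio of Sall1 to P2ry12 within a mouse was 2.01 ± 0.25 in untreated G93A and 1.97 ± 0.31 in untreated WT mice (SD, n = 4 each), with overlapping ranges.

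Olfml3, a secreted glycoprotein, measured 87.1, 116, 112 and 71.9 CPM in untreated G93A and 17.3, 22.5, 21.1 and 14.8 CPM in untreated WT mice, a fold change of 5.17 (95% interval 4.19 to 6.36, edgeR adjusted p = 3.25e-10). Fcrls, an Fc receptor-like scavenger receptor, measured 117, 170, 154 and 94.8 CPM in G93A and 8.39, 8.77, 9.83 and 10.2 CPM in WT mice. This was the largest change of the 9, at 14.5-fold (95% interval 11.6 to 18.1, edgeR adjusted p = 2.38e-12), and its log2 fold change lay at the 99.3rd percentile of all genes tested. P2ry12 lay at the 78.5th percentile by the same measure and Sall1 at the 80.8th.

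In mice given OKN-007, the 9 genes were again all higher in G93A than in WT cord at 155 days (23.3% of all genes tested were called higher), and in all 9 every G93A mouse lay above every WT mouse, as in 22.6% of all genes tested. P2ry12 measured 28.6, 25.0, 24.6 and 26.5 CPM in OKN-007 G93A and 17.2, 19.3, 20.2 and 14.4 CPM in OKN-007 WT mice, a fold change of 1.51 (95% interval 1.25 to 1.84, edgeR adjusted p = 0.00141). Its groups did not overlap here. Fcrls measured 135, 126, 108 and 117 CPM against 7.22, 7.67, 8.74 and 7.17 CPM, a fold change of 16.2 (95% interval 12.9 to 20.3, edgeR adjusted p = 1.32e-12). Between these extremes, the log2 fold changes were 2.52 for Olfml3, 2.39 for Cx3cr1, 2.19 for Gpr34, 1.41 for P2ry13, 0.95 for Tmem119, 0.82 for Siglech and 0.60 for Sall1. Siglech was thus below Tmem119 in these mice and above it in untreated mice, and their intervals overlapped in both.

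**Figure D2:**
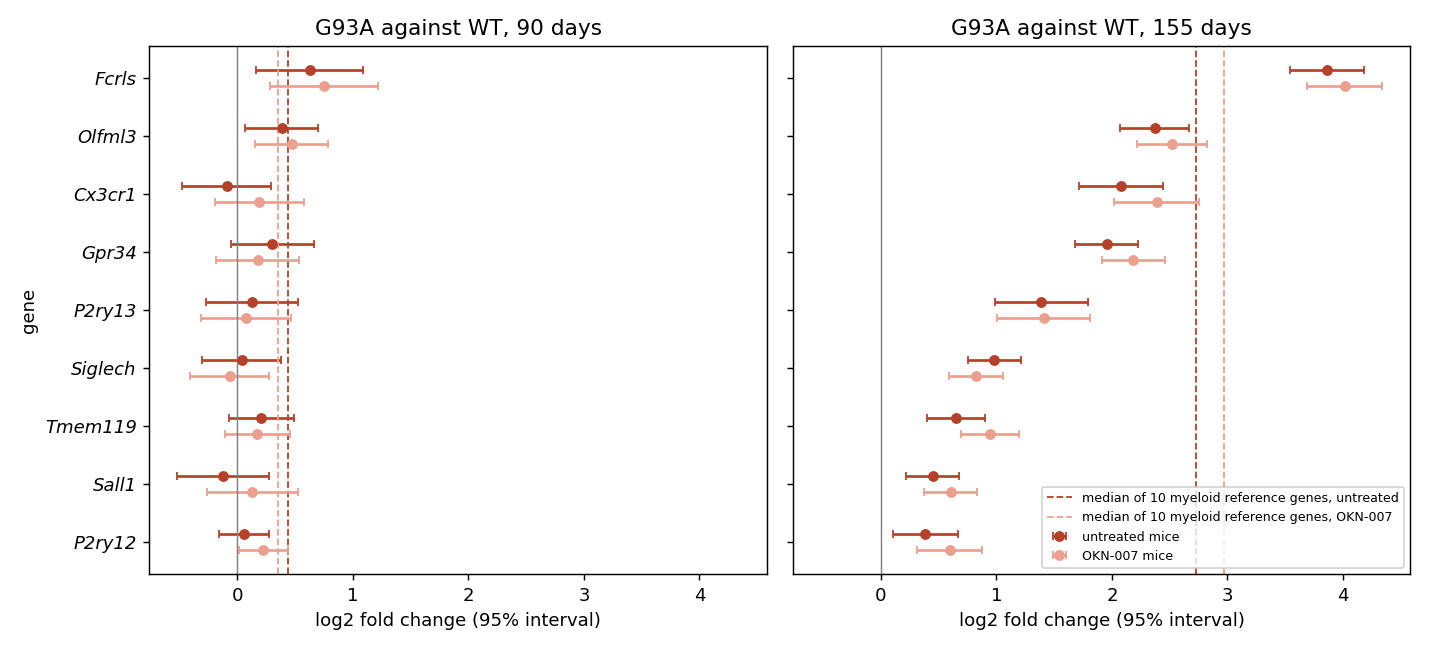
Log2 fold change of G93A against WT for each gene (points, with 95% intervals) at 90 days (left) and 155 days (right), in untreated and OKN-007 mice, n = 4 per group. Dashed lines mark the median of the 10 myeloid reference genes, 2.73 in untreated and 2.97 in OKN-007 mice at 155 days, and Fcrls is the only gene of the 9 to the right of them there.

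The effect of OKN-007 itself was not detectable on any of the 9 genes. At 155 days 0 of 9 passed in G93A and 0 of 9 in WT mice, as did 0% of all genes tested by edgeR in either genotype. At an unadjusted p under 0.05 edgeR counted 755 genes in G93A and 549 in WT mice, and DESeq2 called none of the 9. In G93A mice the log2 fold changes ran from -0.24 for Siglech (95% interval -0.46 to -0.01) to 0.16 for Cx3cr1 (95% interval -0.19 to 0.50). In WT mice Tmem119 had the lowest value, -0.31 (95% interval -0.56 to -0.05), and its OKN-007 mice measured 11.5, 9.11, 10.6 and 11.3 CPM, all below the untreated mice, but it did not pass over all genes (edgeR adjusted p = 1.0). The WT groups did not overlap in 344 of 18675 genes tested, counting both directions. All 9 values in WT mice at 155 days were below 0, which is a description, since the genes share libraries. The interaction of genotype and treatment at 155 days passed in 0 of 9 genes and in 0% of all genes (437 at an unadjusted p under 0.05). Its intervals reached 0.81 for Cx3cr1 and 0.65 for Tmem119 on the log2 scale, so a difference of that size between the genotypes' responses lies within the error.

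At 90 days, the genotypes were much closer. Of the 9 genes, 0 passed between the untreated genotypes and 0 between the OKN-007 genotypes, as did 0% of the 18899 genes tested in each (1126 and 747 genes by edgeR at an unadjusted p under 0.05). Averaged over treatments, where 0.0159% of all genes were called higher by edgeR, the same 0 of 9 passed. The largest values were those of Fcrls, with a log2 fold change of 0.69 (95% interval 0.36 to 1.02, edgeR adjusted p = 0.174), and Olfml3, with 0.43 (95% interval 0.20 to 0.65, edgeR adjusted p = 0.248). The same 2 genes passed when DESeq2 or the likelihood ratio test of edgeR was used, so that their standing at 90 days depends on the test. The share of all genes called by those tests is not given here, so this count cannot be set against a background.

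Fcrls at 90 days measured 10.7, 22.8, 20.8 and 10.6 CPM in untreated G93A and 9.80, 11.6, 11.7 and 8.88 CPM in untreated WT mice. Replicates 10 and 11 of the G93A mice lay above all WT mice, while replicates 9 and 12 lay within their range. In OKN-007 mice at this age it measured 13.01, 13.4, 19.1 and 17.4 CPM in G93A and 8.003, 8.95, 9.48 and 11.1 CPM in WT mice. These groups did not overlap, as in 536 of the 18899 genes tested, counting both directions. Olfml3 measured 28.5, 36.5, 35.5 and 21.1 CPM in untreated G93A and 20.4, 23.1, 26.2 and 23.6 CPM in untreated WT mice, with 1 G93A mouse inside the WT range. Without that mouse, G93A replicate 12, both genes passed in the average over treatments. How many of all genes passed in that fit is not given here. In OKN-007 mice Olfml3 measured 25.1, 27.6, 35.6 and 30.4 CPM in G93A and 22.9, 18.9, 20.8 and 23.6 CPM in WT mice, also without overlap. The 7 genes other than Fcrls and Olfml3 had averaged log2 fold changes between -0.02 for Siglech and 0.24 for Gpr34.

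OKN-007 had no detectable effect on the 9 genes at 90 days either, with 0 of 9 passing in G93A mice, in WT mice and in the interaction (0% of all genes by edgeR, and 1050, 769 and 531 genes at an unadjusted p under 0.05). P2ry12 in G93A mice was the nearest, at 26.1, 30.1, 26.9 and 27.8 CPM with OKN-007 and 24.0, 20.2, 22.3 and 21.6 CPM without. These groups did not overlap, as in 545 of the 18899 genes tested, counting both directions. The log2 fold change of P2ry12 was 0.33 (95% interval 0.12 to 0.55), but the edgeR adjusted p was 0.837. At 155 days the same comparison gave -0.07, and the difference of the OKN-007 effect between ages, -0.41 for P2ry12 (95% interval -0.76 to -0.07), did not pass over all genes (edgeR adjusted p = 1.0; 0% of genes called, 466 at an unadjusted p under 0.05).

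Across age, the genotypes parted. In untreated WT mice, 1 of 9 genes differed between 155 and 90 days: Siglech was lower at 155 days, with a log2 fold change of -0.50 (95% interval -0.79 to -0.21, edgeR adjusted p = 0.0106), where 9.61% of 19829 genes were called lower. The count of 1 of 9 is near that share. Siglech measured 17.4, 14.4, 17.5 and 17.5 CPM at 90 days and between 11.5 and 12.2 CPM at 155 days. These groups did not overlap, as in 3751 of 19829 genes, counting both directions. Cx3cr1 was close, with a log2 fold change of -0.48 (edgeR adjusted p = 0.0547), and passed without WT replicate 2 of 90 days (-0.59, edgeR adjusted p = 0.0200). In untreated G93A mice, 8 of 9 genes were higher at 155 than at 90 days, all but Sall1 (21% of genes were called higher). The largest was Fcrls, 3.06 on the log2 scale, followed by Gpr34 at 1.69 and Cx3cr1 and Olfml3 both at 1.67. P2ry12 (0.33), Tmem119 (0.39) and Siglech (0.43) were the smallest, and all 3 calls were lost without G93A replicate 10 of 90 days or without replicate 10 or 11 of 155 days. The call of Siglech was also lost without replicate 9 or 12 of 90 days, and that of P2ry12 without replicate 11 or 12 of 90 days or replicate 12 of 155 days. P2ry12 did not pass with DESeq2 (adjusted p = 0.0513), RLE factors, no filter, at least 10 counts in every mouse, the Hox covariate, without the mice with most Alb, or with the sample number as a block (edgeR adjusted p = 0.0806), and Tmem119 did not pass with the Hox covariate. Sall1 (0.30) passed without G93A replicate 9 of 90 days (edgeR adjusted p = 0.0278). Nothing in the labels says whether both ages were prepared together, so age and preparation cannot be told apart, and the summed level of 4 oligodendrocyte genes was lower at 155 days in untreated WT mice (16477 to 17842 CPM against 24680 to 31495 CPM).

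The change of the genotype difference with age cancels what both genotypes share. In untreated mice 6 of 9 genes passed this test, all upwards (12.9% of genes): Fcrls at 3.23, Cx3cr1 at 2.16, Olfml3 at 1.98, Gpr34 at 1.64, P2ry13 at 1.24 and Siglech at 0.93 on the log2 scale. The values that did not pass were 0.55 for Sall1 (edgeR adjusted p = 0.0805), 0.43 for Tmem119 (edgeR adjusted p = 0.0985) and 0.32 for P2ry12 (edgeR adjusted p = 0.195). Sall1 passed without WT replicate 2 or G93A replicate 9 of 90 days, and Tmem119 without WT replicate 1 of 90 days, G93A replicate 12 of 155 days or the 3 mice with most Alb. In OKN-007 mice 7 of 9 passed (13% of genes), with Tmem119 at 0.74 (edgeR adjusted p = 0.00421) in addition. P2ry12 and Sall1 passed in neither, at 0.34 (95% interval -0.01 to 0.69) and 0.44 (95% interval -0.02 to 0.90) in OKN-007 mice.

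Levels can be compared between genes only per length of transcript, here approximated as CPM per kb of joined exons. That length joins all transcripts of a gene in GENCODE M21, not only those expressed, and the annotation of the counts is not settled. The ranks given here depend on it. In untreated WT cord at 155 days the order was Cx3cr1 (11.1 ± 1.57), P2ry12 (8.41 ± 1.84), Sall1 (7.82 ± 0.83), Tmem119 (5.62 ± 0.30), Fcrls (3.98 ± 0.36), Siglech (3.49 ± 0.09), Gpr34 (3.24 ± 0.54), Olfml3 (3.08 ± 0.57) and P2ry13 (1.76 ± 0.41 CPM per kb, SD, n = 4). Neighbours in this order overlapped between mice except Sall1 with Tmem119, Tmem119 with Fcrls, and Olfml3 with P2ry13. In untreated G93A cord at 155 days Fcrls led with 57.3 ± 14.7 CPM per kb, ahead of Cx3cr1 with 46.7 ± 14.5, which overlapped it, and Olfml3 with 15.7 ± 3.41, which did not overlap Cx3cr1. Then followed Gpr34 (12.4), P2ry12 (10.9), Sall1 (10.6), Tmem119 (8.73), Siglech (6.83) and P2ry13 (4.56 CPM per kb), each overlapping the next. P2ry12 went from rank 2 to rank 5 and Fcrls from rank 5 to rank 1 between the groups.

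Set against the myeloid reference, the members divided. The geometric mean of the reference was 6.31 to 8.17 CPM in untreated WT and 34.6 to 54.95 CPM in untreated G93A mice at 155 days. On the library scale all 10 of its genes were called higher in G93A mice, against 21.3% of all genes tested, with log2 fold changes from 1.89 for Csf1r to 3.26 for Irf8. When the reference served as the scale in place of the library size, 8 of the 9 genes were lower in untreated G93A than in untreated WT mice and 1, Fcrls, was higher. On this scale 96.5% of all genes tested were called lower (median log2 fold change -2.63), since it shifts every gene by the rise of the reference, and the count of 8 is therefore near the background. Higher calls were 1.02% of all genes tested. The values of the members are then read by their size against that median. Of the 10 reference genes themselves, 2 were called higher and 3 lower on this scale, so the reference did not rise evenly.

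On the reference scale P2ry12 changed by -2.24 (95% interval -2.60 to -1.87), Sall1 by -2.20 (-2.51 to -1.88) and Tmem119 by -2.02 (-2.33 to -1.71), the members nearest to the median of all genes. P2ry12 per unit of reference (ratio of CPM to reference CPM) lay between 2.38 and 3.78 in the untreated WT mice and between 0.496 and 0.845 in the untreated G93A mice, and Sall1 measured 5.78 ± 0.48 and 1.26 ± 0.19 (SD, n = 4 each). Siglech changed by -1.69 and P2ry13 by -1.28 log2 units. Gpr34 (-0.69), Cx3cr1 (-0.62) and Olfml3 (-0.30, edgeR adjusted p = 0.0395) kept nearest to the reference. With Csf1r alone as the reference these last 3 turned to the other direction, at 0.079, 0.17 and 0.48, and Olfml3 was then called higher (edgeR adjusted p = 0.000604). Its call as lower was lost under several other settings. Fcrls rose against the reference by 1.16 log2 units (95% interval 0.85 to 1.47, edgeR adjusted p = 3.70e-08), from 1.32 ± 0.25 to 2.95 ± 0.16 as a ratio (SD, n = 4).

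**Figure D3:**
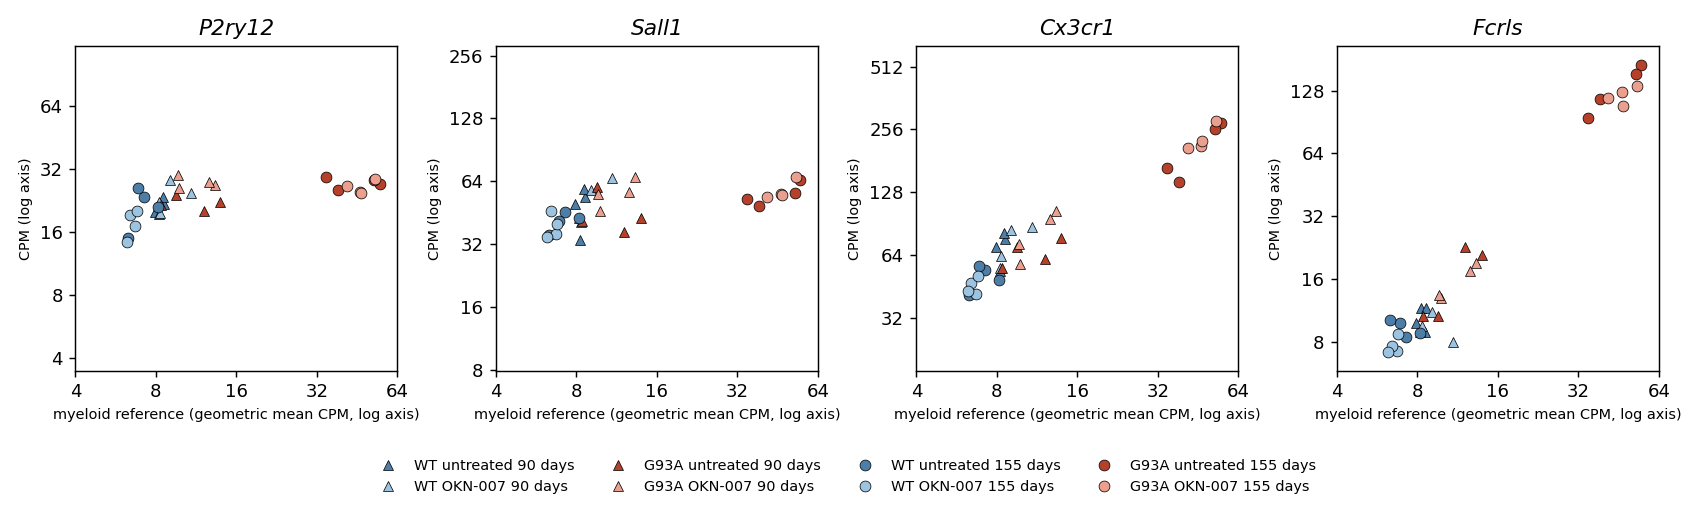
Level of P2ry12, Sall1, Cx3cr1 and Fcrls (CPM) against the geometric mean of the 10 myeloid reference genes (CPM) in each of 32 mice, both on log2 axes with the same span on every y axis. Circles are mice of 155 days and triangles mice of 90 days. P2ry12 runs from 14.4 to 30.1 CPM and Sall1 from 33.5 to 67.3 CPM while the reference runs from 6.22 to 54.95 CPM, and Fcrls climbs more steeply than the reference.

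In OKN-007 mice at 155 days the reference scale gave the same split of 8 lower and 1 higher, where 96.8% of all genes were called lower and 1% higher (median -2.85). P2ry12 changed by -2.27, Sall1 by -2.28, Siglech by -2.05 and Tmem119 by -1.93, and Fcrls by 1.14 (95% interval 0.83 to 1.46). At 90 days 0 of 9 passed on this scale in untreated mice (0.0106% of all genes tested) and 0 of 9 in OKN-007 mice (0% of genes; 2589 by edgeR at an unadjusted p under 0.05). Cx3cr1 was the lowest in untreated mice, at -0.46 (95% interval -0.84 to -0.07), against a median of -0.34 over all genes, and it passed without G93A replicate 12.

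Within groups the 9 genes did not move as a single unit. Deviations of each mouse from its group mean (log2(CPM + 1), 32 mice, description only) correlated with those of the reference at r = 0.87 for Olfml3, 0.79 for Siglech, 0.75 for Cx3cr1, 0.71 for Fcrls, 0.60 for Gpr34 and 0.48 for P2ry13. The values were 0.38 for Tmem119, 0.36 for Sall1 and 0.16 for P2ry12, which also had small changes with genotype. Sall1, P2ry13 and Cx3cr1 formed the tightest trio, with r of 0.76 to 0.78, and P2ry12 went with P2ry13 (0.62) and Sall1 (0.61) but not with Fcrls (-0.07). Mice share library and scaling factor in these values, so part of any correlation can come from those.

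**Figure D4:**
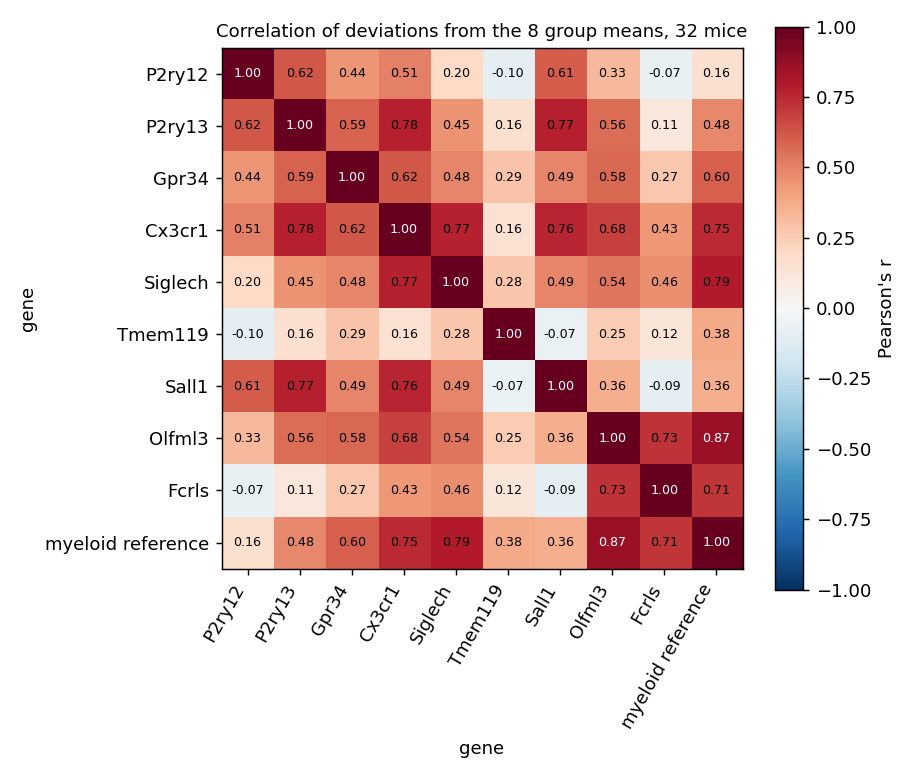
Pearson's r between the 9 genes and the myeloid reference for deviations of 32 mice from their 8 group means of log2(CPM + 1). Red is positive and blue negative; the row of Tmem119 is palest, and Olfml3 and Siglech are the genes closest to the reference.

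The genes most like the mean of the 9 across all 32 mice were Flnc (r = 0.98), C3 (0.97), Lgi4 (0.97), Csf1, Slc16a1, Gfap, Hpgds, Loxl2, Cd44 and Ssc5d, all at 0.96 or above, a measure that includes the differences between groups. By deviations from group means the order was Flnc (0.90), Csf2rb (0.87), Sp110 (0.86), Sox9 (0.86), Arhgap30 (0.85), AU020206, Apbb1ip, Cyth4, Arl5c and Osgin1, all at 0.82 or above. Flnc was first in both.

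Other genes of the homeostatic programme were counted from a list of 16, of which 15 were tested. In untreated mice at 155 days 11 of the 15 were higher in G93A, against 21.3% of all genes tested, and 2 were lower, against 18.2%. Their median log2 fold change was 0.92. P2ry6 (2.97), a UDP receptor tied to phagocytosis, rose most, while Crybb1, a crystallin, fell by 1.03 and Gpr165, an orphan receptor, fell by 0.74. Among 16 partners and upkeep factors of the pathway, 10 were higher and 1 lower (median 0.83; 21.3% and 18.2% of all genes tested). Tyrobp, the adaptor of activating microglial receptors, was 3.91 higher on the log2 scale and Tgfb1, the ligand that maintains the homeostatic state, 2.16 higher. Cx3cl1, the ligand of CX3CR1, was the member called lower, by -0.35, so that ligand and receptor moved in opposite directions. Nt5e, which makes adenosine from AMP, had the smallest rise that passed (0.49), and Il34, a ligand of CSF1R, did not pass (-0.19, edgeR adjusted p = 0.210).

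All 10 listed genes of the disease-associated state were higher in untreated G93A mice at 155 days, against 21.3% of all genes tested. Their median log2 fold change was 4.11 where the 9 had 1.39 and the reference 2.73, a difference that was not tested. Cst7 (7.87) and Gpnmb (7.27) were highest and Axl (1.80) and Spp1 (2.31) lowest. Fcrls (3.86), Olfml3 (2.37), Cx3cr1 (2.08) and Gpr34 (1.95) lay within the range of this list, and P2ry12, Sall1, Tmem119, Siglech and P2ry13 lay below its lowest gene.

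Markers of other cells moved beside these results, and their part in them was not tested. Of 10 border and infiltrating macrophage genes 7 were tested and 2 were higher, Ms4a7 (5.25) and Pf4 (1.39), where 21.3% of all genes tested were called higher. At 90 days 5 of the 10 passed the filter, so part of this count may rest on genes that passed through the G93A mice. The list summed to 7.14 to 11.9 CPM in untreated G93A and 4.14 to 5.05 CPM in untreated WT mice at 155 days. Cd163 (0.31), F13a1 (0.22) and Mrc1 (0.52, edgeR adjusted p = 0.0748) did not pass, nor did Cbr2 and Ccr2, and Lyve1, Ly6c2 and Plac8 were too low to be tested. Of 8 T and NK cell genes 2 were tested at 155 days, Cd8a (2.61) and Cd3g (2.36), and both were higher in G93A mice. At 90 days 0 of the 8 passed the filter on low counts. The 2 genes may have passed it at 155 days only through the G93A mice, so their count is not set against all genes. The list summed to 1.59 to 2.09 CPM in G93A and 0.304 to 0.765 CPM in WT mice. Vascular and meningeal genes were higher in 2 of 8 and lower in 0, with the higher share near the 21.3% of all genes tested, and summed to 291 to 346 and 313 to 348 CPM. Astrocyte genes were higher in 4 of 4, against 21.3% of all genes tested, led by Gfap (2.401). Of 4 oligodendrocyte genes, 1 was higher (Mag, 0.25), again near the 21.3% of all genes. Lower calls were made in 4 of 9 caudal Hox genes, against 18.2% of all genes, from -2.77 for Hoxc11 to -0.81 for Hoxa9. Of 7 liver genes 5 were tested and 0 passed.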

How the data were processed

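Spinal cord RNA of 32 mice was sequenced from stranded mRNA libraries. The authors deposited raw read counts per gene, which are not normalized; the paper's methods name Trimmomatic, STAR, HTSeq, GRCm38 and GENCODE M10, whereas the submitters' processing notes list FastQC, STAR, featureCounts, edgeR, GRCm39, mm39 and hg38. The table holds 820 identifiers of a later series and 1321 that are not in GENCODE M21, so its annotation is not settled. In all, 96.9% of 42524 identifiers matched GENCODE M21 (GRCm38), which gave symbols, positions and exon lengths, and those without a match held 0.0552% of counts. Library totals were 19701722 to 30138257.

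Groups were taken from the sample labels. For each age, 16 mice in 4 groups were fitted with edgeR 4.0.16 (R 4.3.3, limma 3.58.1): filterByExpr, TMM factors, estimateDisp, glmQLFit and glmQLFTest, two-sided, with Benjamini-Hochberg adjustment over all genes tested and a threshold of 0.05. Comparisons between ages used all 32 mice. Intervals are 95% intervals from the quasi-likelihood standard error, and log2 fold changes used edgeR's fitted coefficients. For the reference scale, the geometric mean of the 10 reference genes replaced the library size. Alternatives included DESeq2 1.42.0, other filters and factors, covariates and leaving out mice. No pair of libraries was identical. The labels do not say whether mice of a group shared a litter or a day, so p-values measure the spread between these samples.

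The 9 genes, the lists and the tests were chosen with earlier results of these data known. Named were the 9 genes, at most 4 genes of each list (the 2 highest and 2 lowest called at 155 days), the 10 genes most like the 9 by either measure and overlapping neighbours; list genes named beyond this were chosen after their values were seen.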

Additional observations from a re-analysis of the deposited data

Results flagged for a closer look

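In groups of 4 mice, 72 sets of values (9 genes in 8 groups) were examined for a mouse far from the others, by the gap to its neighbour over the range of the group. A gap of this kind arises by chance in about 1 in 20 groups, and 4 of 72 were found. P2ry13 measured 6.92 CPM in untreated G93A replicate 9 at 90 days, against 4.47 CPM in the next mouse. Siglech measured 22.7 CPM in untreated G93A replicate 11 at 90 days, with the next mouse at 15.6 CPM, and 14.4 CPM in untreated WT replicate 2 at 90 days, with the next at 17.4 CPM. Sall1 measured 67.3 CPM in OKN-007 G93A replicate 13 at 155 days, with the next at 55.5 CPM.

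The change of the genotype difference between 90 and 155 days passed the test in several genes, tested as an interaction in edgeR's quasi-likelihood fit. In untreated mice the log2 values were 1.24 for P2ry13, 2.16 for Cx3cr1, 0.93 for Siglech, 1.64 for Gpr34, 1.98 for Olfml3 and 3.23 for Fcrls. In OKN-007 mice they were 1.30 for P2ry13, 0.74 for Tmem119, 2.16 for Cx3cr1, 0.86 for Siglech, 1.98 for Gpr34, 2.01 for Olfml3 and 3.23 for Fcrls. Whether these values differ between untreated and OKN-007 mice was not tested.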

How the results depend on the processing

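Counts of the 9 genes called were recomputed in 20 comparisons under other settings, and 347 counts were labelled the same, 14 stronger and 3 weaker. The label of the same also takes in counts that moved by a small factor, so not all 347 were unchanged. The share of all genes called under each setting is not given here. Between OKN-007 genotypes at 90 days, no filter on low counts gave 1 gene (Fcrls). Averaged over treatments at 90 days, the count went from 0 to 2 (Fcrls and Olfml3) with DESeq2, the likelihood ratio test or no filter, to 1 (Fcrls) with all 32 mice, and ranged from 0 to 2 when single mice were left out. For age in WT mice the count went from 1 to 2 (Cx3cr1 added) with DESeq2, the likelihood ratio test, at least 10 counts in every mouse, the Hox covariate or without the 3 mice with most Alb, and ranged from 1 to 2 when single mice were left out. For age in G93A mice it ranged from 5 to 8, for the change of the untreated genotype difference with age from 6 to 7, and on the reference scale in untreated mice at 90 days from 0 to 1. With Csf1r alone as the reference, the values turned positive in untreated mice for Cx3cr1 (0.17), Gpr34 (0.079) and Olfml3 (0.48), and in OKN-007 mice for Cx3cr1 (0.38), Gpr34 (0.19) and Olfml3 (0.51), of which Olfml3 in both and Cx3cr1 in OKN-007 mice were called higher (edgeR adjusted p = 0.000604, 0.000325 and 0.0133); the cause was not tested. In untreated mice at 155 days, P2ry12 lost its call with the Hox covariate, without the 3 Alb mice, with only the compared groups and without WT replicate 4 or G93A replicate 11 or 12. Deviations of 16 same-numbered pairs of mice across the ages correlated at -0.22 to 0.26. Of the 16 mice of 90 days, 3 correlated best with their own number among the 155-day mice of the same genotype and treatment. These values cannot show whether the numbers mark a shared litter or order of preparation. With the number as a block, 2 genes passed with age in WT mice (Olfml3 added), P2ry12 lost its call with age in G93A mice (edgeR adjusted p = 0.0806), and the interactions kept 6 and 7.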
